A study of Homo sapiens with 20 samples.

Results

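The genes described here encode the subunits of the mitochondrial respiratory chain and of ATP synthase (complexes I to V), from both genomes of the cell. They were chosen by gene name (MT-ND, MT-CO, MT-CYB and MT-ATP genes, NDUF subunits, SDHA to SDHD, UQCR, COX4 to COX8 and ATP5 genes, assembly factors of the NDUFAF series left out), and 102 of the 60271 annotated genes met the rule: 13 on the mitochondrial chromosome and 89 in the nucleus. Complex I contributed 7 mitochondrial and 39 nuclear genes, complex II 4 nuclear genes, complex III 1 and 9, complex IV 3 and 17, and complex V 2 and 20. NDUFA4 and its paralog NDUFA4L2 are counted with complex I by name, although NDUFA4 is now regarded as a subunit of complex IV.

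The respiratory chain passes electrons from NADH (through complex I) and from succinate (through complex II) to coenzyme Q, then through complex III and cytochrome c to complex IV, which reduces oxygen. Complexes I, III and IV pump protons across the inner mitochondrial membrane, and complex V uses the gradient to make ATP. Mitochondrial DNA is transcribed into long polycistronic RNAs that are cut into individual messengers, so the mitochondrial genes share promoters, whereas each nuclear gene has its own. Complex II is the only complex with no mitochondrially encoded subunit.

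The cells were MDA-MB-468, an established triple negative breast cancer line that carries high levels of the EGF receptor. The methods give 24 h in serum-free medium before stimulation, with no separate time for each group. Epidermal growth factor (EGF, 50 ng/mL) was present for 12, 24, 48 or 72 h, or not at all in the control. Each of the 5 groups holds 4 biological replicates (20 libraries). Per the labels, the cultures of this sequencing experiment ran in parallel and differed in when EGF was added. The serum-free time before EGF may therefore have differed between groups, and its part in the results was not tested. The single line limits the results to a single genetic background. EGF induces an epithelial-mesenchymal transition in these cells, and the design asks how RNA levels move over its course.

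The libraries held 15611961 to 25856953 counts on genes. The epithelial markers EPCAM, KRT8, KRT18, KRT19, KRT7, CDH1 and EGFR were all present. Their summed levels ran from 4980 to 19700 CPM (counts scaled to a common library size). The leukocyte, endothelial and fibroblast marker lists summed to at most 18.9, 6.07 and 15.0 CPM. Of the 3 receptors listed as absent in triple negative cells, PGR had no count. ESR1 stood at 1.91 to 6.53 CPM and ERBB2 at 7.79 to 24.6 CPM. The epithelial sum was 4980 to 5500 CPM in the controls, 18900 to 19700 CPM at 12 h and 8130 to 8890 CPM at 72 h. EGFR, the receptor of the added ligand, alone spanned 3360 to 12100 CPM over the libraries, and KRT18 spanned 684 to 5340 CPM. Each of the other epithelial markers reached at most 843 CPM. The leukocyte sum was 6.18 to 7.88 CPM in the controls, 2.83 to 3.65 CPM at 12 h, 14.8 to 18.9 CPM at 48 h and 11.7 to 14.6 CPM at 72 h. The 6 fibroblast markers had a summed level of 5.12 to 7.90 CPM in the controls and 13.1 to 15.0 CPM after 72 h; COL1A1 alone reached 14.8 CPM and each of the others at most 0.388 CPM. The part of these marker lists in the results was not tested. CPM are scaled by the trimmed mean of M-values (TMM), whose factors were 1.06 to 1.08 in the controls and 0.862 to 0.898 at 12 h. Scaling by library size alone moved the median of all genes at 12 h from -0.05 to -0.34 on the log2 scale, so that differences at 12 h in particular are relative to that choice. All 4 comparisons with the control use the same 4 control libraries, and their results are not independent of each other.

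All 13 mitochondrial genes and 82 of the 89 nuclear genes passed the filter on low counts. The 7 that did not were COX4I2 and COX6A2, with no count in any library, COX7A1 and ATP5MGL, with 1 count each, COX7B2 with 4, COX8C with 26 and NDUFA4L2 with 66 counts over the 20 libraries. Each of them is a tissue-restricted or minor paralog, and the ubiquitous counterparts COX4I1, COX6A1, COX7A2, COX7B, COX8A, NDUFA4 and ATP5MG were all well detected. MT-ND6, the one member transcribed from the light strand, had only 171 counts in all, against 377189 for MT-ATP8, the next lowest of the 13. The libraries were made with an mRNA protocol (Lexogen Corall). The part of this protocol in the low count of MT-ND6 and in the levels of the other mitochondrial RNAs was not tested.

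Some neighbouring mitochondrial genes share bases and are read from a single messenger in overlapping frames. MT-ATP8 (chrM:8366-8572, GRCh38, plus strand) and MT-ATP6 (chrM:8527-9207) share 46 bases, and MT-ND4L (chrM:10470-10766) and MT-ND4 (chrM:10760-12137) share 7 bases. The shared bases are in capitals in the sequences of the upstream gene of each pair, from GENCODE release 29.
MT-ATP8: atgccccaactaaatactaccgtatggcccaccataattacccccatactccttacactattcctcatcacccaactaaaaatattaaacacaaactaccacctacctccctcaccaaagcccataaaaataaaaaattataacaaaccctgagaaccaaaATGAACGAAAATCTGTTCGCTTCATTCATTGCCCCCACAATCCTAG
MT-ND4L: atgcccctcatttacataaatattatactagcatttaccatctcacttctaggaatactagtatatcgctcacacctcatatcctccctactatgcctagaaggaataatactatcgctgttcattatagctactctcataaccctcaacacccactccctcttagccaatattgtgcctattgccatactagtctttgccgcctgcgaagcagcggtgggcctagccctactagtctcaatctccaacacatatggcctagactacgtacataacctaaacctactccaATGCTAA
A read over the shared bases cannot be given to 1 gene. Bases shared with other genes on the same strand made up 22.2% of MT-ATP8, 6.9% of MT-ATP6, 2.36% of MT-ND4L and 0.508% of MT-ND4. The 2 genes of a pair lie on a single messenger, and their values are not measurements of separate messengers. Nuclear copies of mitochondrial genes add another uncertainty. The counts on 402 annotated copies of mitochondrial mRNA and rRNA genes came to 1.00% to 1.3% of the counts on the 13 genes in every library.

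The 13 mitochondrial genes took a larger part of the counts after 72 h of EGF than in the controls, and the 89 nuclear genes took a smaller part at every EGF time. The 13 genes held 4.92%, 7.49%, 5.03% and 6.99% of all counts in control replicates 1 to 4, and 7.06%, 5.07%, 6.13% and 4.18% at 12 h. They held 7.20%, 8.38%, 6.98% and 6.22% at 24 h, 7.57%, 11.3%, 5.72% and 6.59% at 48 h, and 10.3%, 9.66%, 7.51% and 10.6% at 72 h. All 4 libraries at 72 h lay above the controls, by a small margin in replicate 3, whereas the groups at 12, 24 and 48 h overlapped the controls. With counts off the mitochondrial chromosome as the denominator, 3 of the 4 libraries at 72 h lay above all controls. The mean share was 6.11% ± 1.32 (SD, n = 4) in the control and 9.52% ± 1.39 at 72 h.

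The nuclear share was lower than in the controls at every EGF time. Shares of all counts are not scaled for composition. With library size scaling alone, the median log2 fold change over all genes was -0.34 at 12 h. It was -0.15, 0.02 and -0.09 at 24, 48 and 72 h. The mean mitochondrial share at 12 h was 5.61%. After TMM scaling, 12 of the 13 mitochondrial genes had positive log2 fold changes at 12 h (median 0.22, 0 called). The 89 genes held 1.4% to 1.63% of counts in the controls, 1.01% to 1.03% at 12 h, 0.971% to 1.1% at 24 h, 1.24% to 1.29% at 48 h and 1.03% to 1.12% at 72 h. Every EGF library lay below every control. The log2 ratio of mitochondrial to nuclear counts was 1.59, 2.42, 1.75 and 2.28 in the controls and 3.33, 3.19, 2.75 and 3.29 at 72 h. It was 2.54 to 3.00 at 24 h, above all controls, and 2.05 to 2.79 at 12 h and 2.15 to 3.19 at 48 h, where the ranges overlapped that of the controls.

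**Figure D1:**
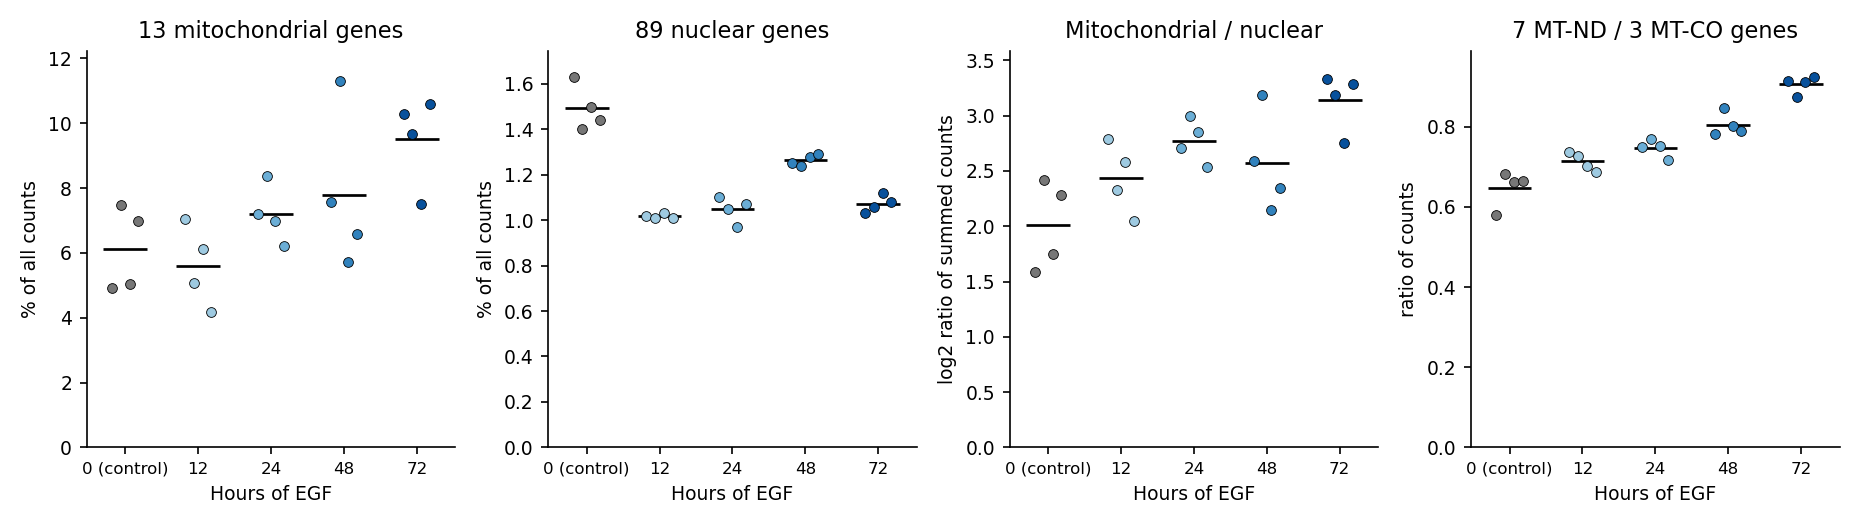
Summed counts of the respiratory chain genes in each library, by hours of EGF (4 libraries per group as points, group mean as a line): percent of all counts on the 13 mitochondrial genes, percent on the 89 nuclear genes, log2 ratio of the first to the second, and ratio of the 7 MT-ND genes to the 3 MT-CO genes. The nuclear share lies below the controls in every EGF library, and the ratio of MT-ND to MT-CO counts goes from 0.579 to 0.683 in the controls to 0.873 to 0.925 at 72 h.

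Among the single mitochondrial genes, 8 of 13 rose at 72 h and none fell, at an adjusted p under 0.05 in edgeR's quasi-likelihood test; 30.6% of all 16522 genes tested were called higher in that comparison. Their median log2 fold change was 0.76, against -0.01 over all genes. The 8 were MT-ND1, MT-ND2, MT-ND4, MT-ND4L and MT-ND5 of complex I, MT-CYB of complex III, MT-CO1 of complex IV and MT-ATP6 of complex V. At 12 h the edgeR test called 0 of the 13, 0 had an unadjusted p under 0.05 and DESeq2 called 0, with 32.9% of all genes called higher. MT-ND4 and MT-ND4L were called at 24 h, with 29.2% called higher in the background, and MT-ND4L alone at 48 h, with 24.0%.

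MT-ND4, a membrane subunit of the proton-pumping arm of complex I, stood at 6340, 10800, 7070 and 9970 CPM in the controls and at 13700, 8940, 11500 and 7130 CPM at 12 h. It stood at 13700, 16300, 13300 and 11300 CPM at 24 h, 12100, 20500, 9400 and 10900 CPM at 48 h, and 20200, 18400, 13900 and 20900 CPM at 72 h. The libraries at 24 h and 72 h all lay above all controls, as did those of 3 mitochondrial genes in all at 24 h and 7 at 72 h (24.2% and 26.1% of all genes), and at 72 h the log2 fold change was 1.1 (SE 0.26, adjusted p = 0.00164). The call at 24 h (log2 fold change 0.68, adjusted p = 0.0343) was lost without control replicate 1 (adjusted p = 0.0967), control replicate 3 (0.0899) or EGF 24 h replicate 1 (0.0541), 2 (0.0914) or 3 (0.0523). For MT-ND4L the calls at 24 and 48 h (0.71 and 0.68) were likewise lost without control replicate 1 (adjusted p = 0.0932 and 0.128) or 3 (0.0813 and 0.113), at 24 h without EGF 24 h replicate 2 (0.0873) and at 48 h without EGF 48 h replicate 1 (0.0623) or 2 (0.206).

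MT-ND1, which sits where the membrane and peripheral arms of complex I meet, had the largest log2 fold change at 72 h together with MT-ND4L, 1.11 each (SE 0.27; adjusted p = 0.00192 and 0.00188). It measured 1520, 2720, 1560 and 2260 CPM in the controls against 4810, 4330, 3270 and 4950 CPM at 72 h, with no overlap. MT-ND2 followed at 0.91 (SE 0.18, adjusted p = 2.50e-04), MT-CYB at 0.83 (SE 0.24, adjusted p = 0.00643), MT-ND5 at 0.77 (SE 0.23, adjusted p = 0.00922) and MT-CO1, the catalytic core of complex IV, at 0.76 (SE 0.23, adjusted p = 0.00915). All 4 libraries at 72 h lay above all controls for each of these 4 genes. MT-ATP6 was the weakest call (0.63, SE 0.26, adjusted p = 0.0431); without control replicate 1 or 3 its adjusted p was 0.121 or 0.111, and without EGF 72 h replicate 1, 2 or 4 it was 0.0854, 0.0779 or 0.101.

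The other 5 mitochondrial genes did not pass the test at 72 h. MT-CO3, the third subunit of the complex IV core, measured 5760, 8250, 6270 and 8120 CPM in the controls and 8750, 8570, 6100 and 9160 CPM at 72 h, a log2 fold change of 0.20 (SE 0.22, adjusted p = 0.447). MT-CO2 was at 0.40 (SE 0.19, adjusted p = 0.0775), MT-ND3 at 0.21 (SE 0.16, adjusted p = 0.274), MT-ATP8 at 0.62 (SE 0.27, adjusted p = 0.0552) and MT-ND6 at 0.26 (SE 0.46, adjusted p = 0.652). The 6 genes annotated at 956 bases or longer all passed the test, whereas of the 7 shorter ones only MT-ND4L and MT-ATP6 did. MT-ND4L is part of the MT-ND4 messenger.

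The relative amounts within the mitochondrial set differed between groups, and this can be read within each library without any scaling. The summed counts of the 7 MT-ND genes stood at 0.579, 0.683, 0.661 and 0.665 of those of the 3 MT-CO genes in the controls. The ratio was 0.687 to 0.737 at 12 h, 0.718 to 0.768 at 24 h, 0.781 to 0.847 at 48 h and 0.873 to 0.925 at 72 h, and at each of the 4 times every library lay above every control. For MT-ND4 against MT-CO3, a pair picked for its contrast after the values were seen, the ratio was 1.1 to 1.31 in the controls, 1.38 to 1.51 at 12 h, 1.65 to 1.83 at 24 h, 1.84 to 2.02 at 48 h and 2.14 to 2.3 at 72 h. Within a group it varied far less than the mitochondrial share did. Per kilobase, MT-CO2 had the highest control mean (16600 CPM per kb), followed by MT-CO3 (9060), MT-ND4L (8330) and MT-CO1 (7710), and MT-ND5 was the lowest apart from MT-ND6 (1460 and 0.634); at 72 h MT-ND4L (18000), MT-ND4 (13300) and MT-CO1 (13100) stood above MT-CO3 (10400). The median nuclear gene stood at 30.7 CPM per kb in the controls.

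The mitochondrial ribosomal RNAs, which lie upstream of the messengers on the same strand, moved less than most messengers. MT-RNR2 had a log2 fold change of 0.26 at 72 h (SE 0.11, adjusted p = 0.0410) and MT-RNR1 of 0.40 (SE 0.17, adjusted p = 0.0497). The counts on the 13 genes were 1.1 to 1.48 times those on the 2 rRNA genes in the controls and 1.58 to 1.85 times at 72 h. Of 7 mitochondrial tRNA genes tested, 0, 0, 2 and 2 rose and 0 fell at the 4 times. The rises were 28.6% of the tRNA genes at 48 h and at 72 h, against 24.0% and 30.6% of all genes. Of 11 nuclear copies tested, 0, 0, 2 and 7 rose and 1, 1, 0 and 0 fell. The rises were 18.2% of the copies at 48 h and 63.6% at 72 h. The falls were 9.09% at 12 h and at 24 h, against 36.5% and 29.6% of all genes. MTND4P12, a copy of MT-ND4, had a log2 fold change of 1.25 at 72 h (SE 0.31, adjusted p = 0.00232), and reads of the 2 genes may not be separable.

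**Figure D2:**
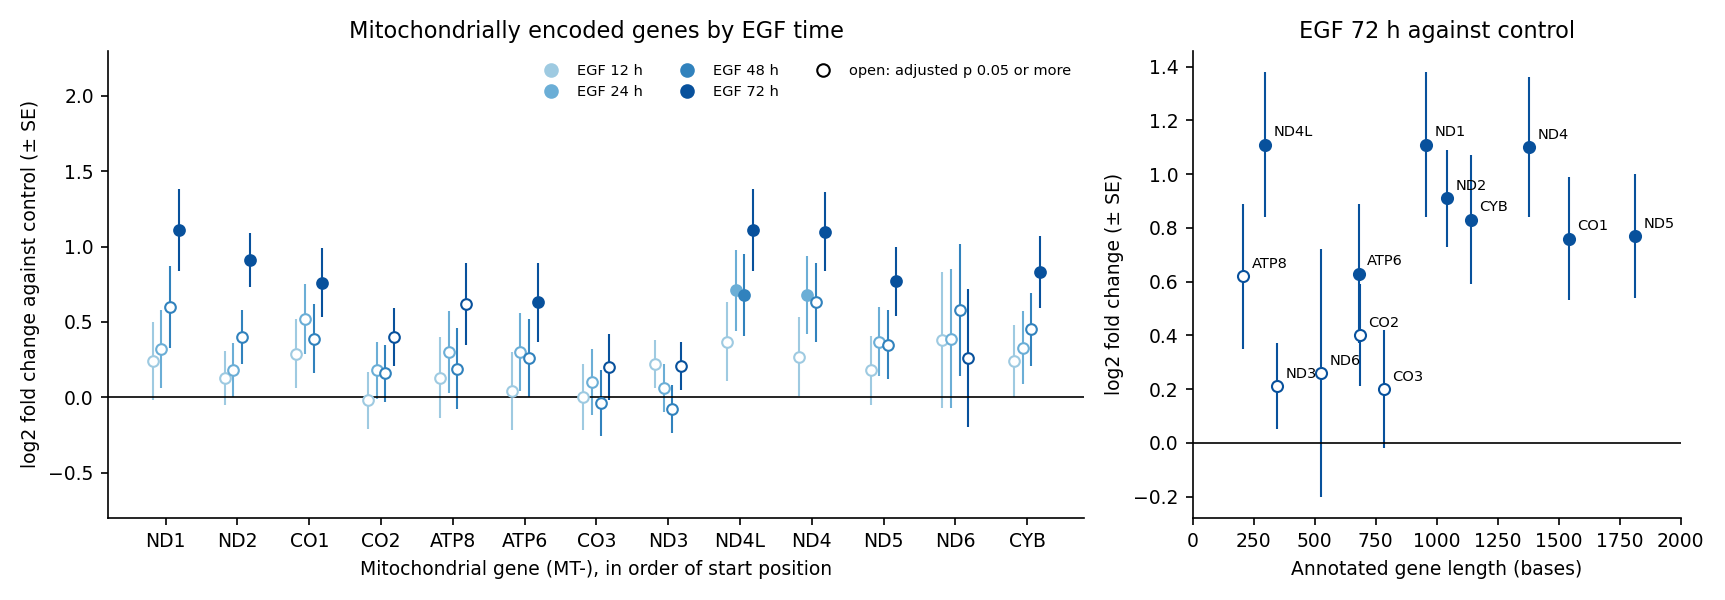
Left, log2 fold change against control (± SE) of the 13 mitochondrial genes at each EGF time, in order of their start position; filled points have an adjusted p under 0.05. Right, the same values at 72 h against annotated gene length in bases; MT-ND4L, MT-ND1 and MT-ND4 lie at 1.1 to 1.11 and MT-CO3, MT-ND3 and MT-ND6 at 0.20 to 0.26.

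More nuclear genes fell than rose at every EGF time. At 12 h, 39 of the 82 tested fell and 4 rose, with 36.5% of all genes called lower and 32.9% higher. At 24 h, 58 fell and 2 rose (29.6% and 29.2% of all genes), at 48 h 40 fell and 2 rose (21.8% and 24.0%), and at 72 h 61 fell and 1 rose (31.0% and 30.6%). As shares of the 82 genes, the falls came to 47.6%, 70.7%, 48.8% and 74.4%. Their median log2 fold changes were -0.21, -0.34, -0.20 and -0.36, against -0.05, -0.01, 0.01 and -0.01 over all genes. With library size scaling the count at 12 h was 73 lower and 1 higher, and with upper quartile scaling it was 59 lower and 1 higher. Falls of more than 1.5-fold were called for 12, 22, 4 and 16 of the 82 genes at 12, 24, 48 and 72 h. Over all genes the shares were 26.3%, 16.8%, 6.63% and 15.6%. Such falls were thus rarer among the 82 than over all genes at 12 and 48 h, and more frequent at 24 and 72 h. All 4 EGF libraries lay below all controls for 31, 44, 21 and 49 of the 82 genes, against 31.4%, 24.0%, 15.3% and 25.9% of all genes. Fewer cells with a given RNA and less of that RNA per cell cannot be told apart in bulk RNA.

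Of the 82 genes, 69 fell at 1 time or more and 28 fell at all 4 times, against 52.2% and 10.4% of all genes tested. The 28 were ATP5F1C, ATP5F1E, ATP5MC2, ATP5MPL, ATP5PB, ATP5PD, ATP5PF, ATP5PO, COX7B, COX7C, NDUFA2, NDUFA4, NDUFA5, NDUFB1, NDUFB10, NDUFB3, NDUFB4, NDUFB5, NDUFB6, NDUFB7, NDUFC1, NDUFC2, NDUFS5, NDUFS6, SDHD, UQCR10, UQCRB and UQCRQ. In all, 6 genes rose at 1 time or more, ATP5F1B, ATP5F1D, COX6B2, COX7A2L, NDUFA7 and SDHA, and of these ATP5F1B also fell at a later time. Another 8 were called at no time: ATP5MC1, ATP5MD, ATP5ME, ATP5MF-PTCD1, COX6A1, COX8A, NDUFS4 and NDUFS8.

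**Figure D3:**
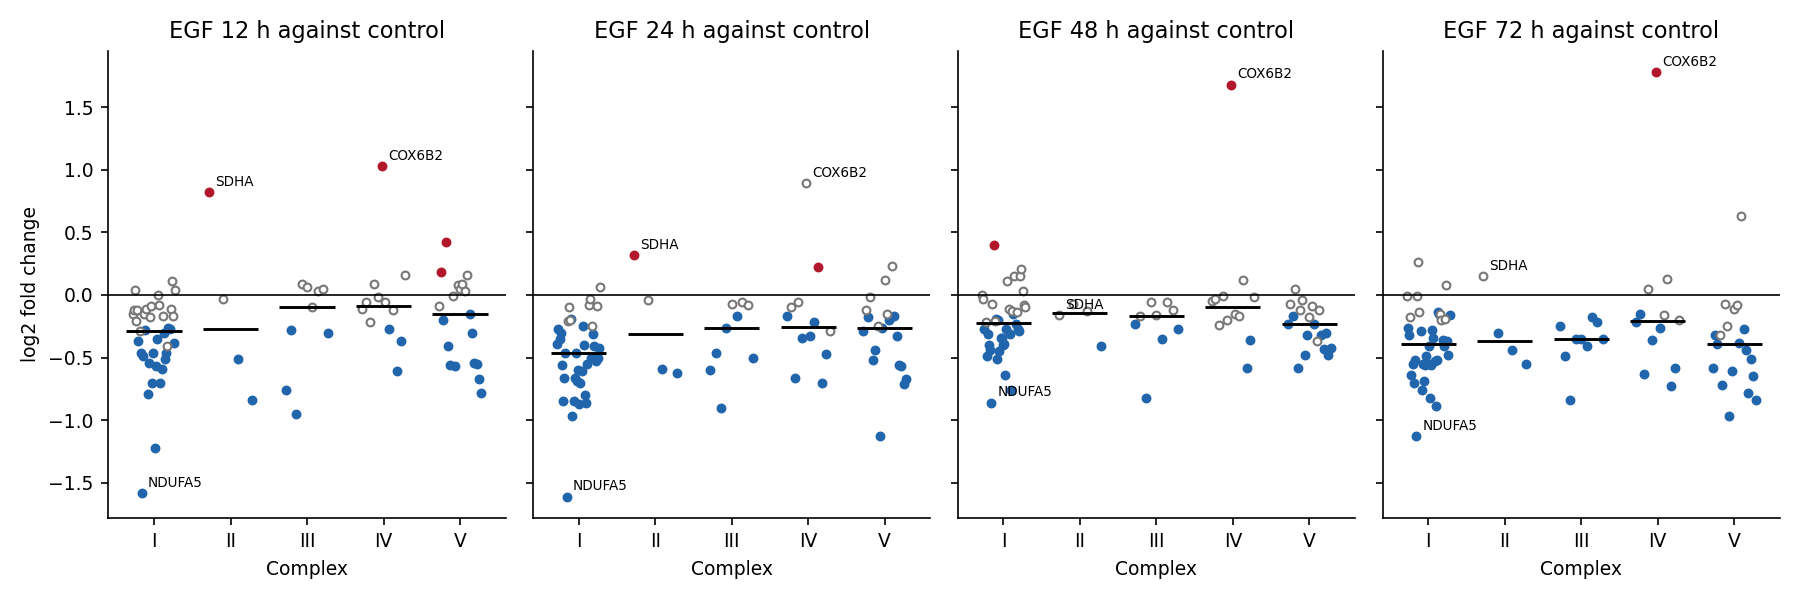
Log2 fold change against control of the 82 nuclear genes tested, by complex and EGF time; each point is a gene (red, called higher; blue, called lower; open, adjusted p of 0.05 or more) and the black line the median of the complex. At 24 and 72 h, 76 and 75 of the 82 points lie below 0, and COX6B2 is the furthest above it at each time.

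Complex II (succinate dehydrogenase), which links the citric acid cycle to coenzyme Q, had its 4 subunits move apart at 12 h. SDHA, the flavoprotein with the succinate binding site, measured 79.4, 58.1, 59.3 and 58.8 CPM in the controls and 107, 114, 115 and 115 CPM at 12 h. It then measured 73.5 to 86.1 CPM at 24 h, 56.4 to 58.3 CPM at 48 h and 66.6 to 74.7 CPM at 72 h. The libraries at 12 h all lay above the controls (log2 fold change 0.82, SE 0.083, adjusted p = 5.35e-09), and SDHA was again called at 24 h (0.32, adjusted p = 0.00221) but not at 48 or 72 h. Near-identical pseudogene copies of SDHA exist in the genome, and the division of reads between them is uncertain.

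The membrane anchors of the same complex fell. SDHD measured 251, 184, 272 and 221 CPM in the controls and 131, 118, 135 and 135 CPM at 12 h, with no overlap (log2 fold change -0.84, SE 0.11, adjusted p = 2.11e-07). It stayed lower at 24, 48 and 72 h (-0.62, -0.41 and -0.55). SDHC measured 207, 216, 193 and 206 CPM in the controls and 146, 138, 147 and 144 CPM at 12 h (-0.51, adjusted p = 3.80e-08); it was not called at 48 h (-0.13, adjusted p = 0.0746). The iron-sulfur subunit SDHB, at 150, 124, 165 and 142 CPM in the controls and 143, 131, 154 and 142 CPM at 12 h, overlapped the controls fully (-0.03, SE 0.080, adjusted p = 0.784), and fell at 72 h only (-0.30, adjusted p = 0.00260).

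The promoter sequences of 3 of these subunits are shown because the genes share one enzyme and differed in direction at 12 h. They are the 250 bases before the RefSeq start site (build GRCh38.p14), 5′ to 3′ on the strand of the gene, with capitals where the letters of the NRF1 motif (GCATGCGC) or of the ETS family motif bound by GABP (CCGGAAG) occur on either strand; NRF1 and GABP are known activators of nuclear respiratory genes.
SDHA, chr5:218070-218319, plus strand: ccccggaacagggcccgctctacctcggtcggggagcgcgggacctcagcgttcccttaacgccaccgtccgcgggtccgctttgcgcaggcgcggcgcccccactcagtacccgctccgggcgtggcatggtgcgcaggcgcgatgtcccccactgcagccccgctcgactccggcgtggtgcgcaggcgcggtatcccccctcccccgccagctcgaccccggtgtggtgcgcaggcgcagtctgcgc
SDHB, chr1:17054033-17054282, minus strand: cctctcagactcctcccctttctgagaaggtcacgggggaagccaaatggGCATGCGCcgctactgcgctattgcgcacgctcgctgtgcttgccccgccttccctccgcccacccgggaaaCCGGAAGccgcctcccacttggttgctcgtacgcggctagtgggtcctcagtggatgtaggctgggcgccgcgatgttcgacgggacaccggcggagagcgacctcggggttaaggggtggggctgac
SDHD, chr11:112086623-112086872, plus strand: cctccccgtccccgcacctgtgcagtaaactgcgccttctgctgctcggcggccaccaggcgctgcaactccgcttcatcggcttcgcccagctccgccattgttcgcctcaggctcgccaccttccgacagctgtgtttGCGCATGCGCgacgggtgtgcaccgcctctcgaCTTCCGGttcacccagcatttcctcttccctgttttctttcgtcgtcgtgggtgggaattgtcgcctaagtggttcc
In the window of 300 bases that includes 50 bases after the start, SDHB also held the YY1 motif (AAGATGGCG) once. The NRF1 letters occurred in SDHD in 2 overlapping matches on opposite strands, and the SDHA window held none of the 3 motifs. No match says only that these letters are not in this window.

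Of the 89 nuclear genes, 68 had a RefSeq promoter entry. The NRF1 letters were in 14 of them (20.6%), against 6.05% of the 10647 protein-coding genes tested with an entry and 3.05% of all 35116 promoters. The ETS letters were in 20 (29.4%, against 22% and 10.3%) and the YY1 letters in 9 (13.2%, against 4.50% and 1.75%). Among the 22 genes with an entry that fell at all 4 times, 7 held the NRF1 letters, 5 the ETS letters and 1 the YY1 letters, against 7, 15 and 8 of the other 43 tested.

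The largest single fall among the nuclear genes at each time was that of NDUFA5 in complex I. At 72 h the median log2 fold change was -0.39 in complex I and also in complex V. Falls of more than 1.5-fold were called at 72 h for 7 of 38 genes in complex I and 6 of 19 in complex V, against 15.6% of all genes. The share in complex I was near that of all genes, and the share in complex V was larger. None of the 38 nuclear genes of complex I tested rose at 12, 24 or 72 h. NDUFA7 alone rose at 48 h (0.40, adjusted p = 0.0263). Its adjusted p was 0.0645 to 0.0919 without control replicate 1, 3 or 4 or EGF 48 h replicate 1 or 2. In complex I 20, 30, 22 and 29 genes fell at the 4 times (52.6%, 78.9%, 57.9% and 76.3%). Over all genes 36.5%, 29.6%, 21.8% and 31.0% fell. NDUFA5, an accessory subunit of the peripheral arm, measured 44.1, 25.1, 52.4 and 38.5 CPM in the controls and 13.3, 12.6, 13 and 14.5 CPM at 12 h. It measured 14.7, 10.9, 12.8 and 13.7 CPM at 24 h, 19.8, 15.2, 27.6 and 25.2 CPM at 48 h and 17.5, 19.9, 18.3 and 17.6 CPM at 72 h. The groups at 12, 24 and 72 h lay below all controls and the group at 48 h overlapped them. The log2 fold changes were -1.58, -1.61, -0.86 and -1.13 (SE 0.17 to 0.18), with adjusted p from 1.20e-07 to 3.98e-04.

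NDUFB5, a membrane arm accessory subunit, fell most at 12 h (70.7, 48.2, 75.5 and 59.3 CPM in the controls against 25.7, 24.1, 29.8 and 29.4 CPM; log2 fold change -1.22, SE 0.15, adjusted p = 1.67e-07). At 48 h the call (-0.39, adjusted p = 0.0278) was lost without control replicate 1 or 3 or EGF 48 h replicate 1 or 2 (adjusted p = 0.0552 to 0.120), and with the factors per gene the value was 0.54 (adjusted p = 0.327). At 72 h its fold change was -0.41 (adjusted p = 0.0163), a call lost without control replicate 1 (adjusted p = 0.0536) or 3 (0.0779). NDUFB1, another membrane arm subunit, had all 4 libraries below all controls at each time (-0.79, -0.97, -0.51 and -0.76). NDUFC2 fell by 0.76 at 48 h and 0.89 at 72 h on the log2 scale, but all exon bases of the annotated readthrough NDUFC2-KCTD14 overlap other genes, and its 51725 counts beside the 61318 of NDUFC2 cannot be divided with certainty.

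The 7 core subunits of complex I, which carry the flavin and the iron-sulfur clusters, did not move in one way. At 12 h NDUFS1 fell by 0.30 on the log2 scale (SE 0.060, adjusted p = 9.86e-05), whereas NDUFV1, at -0.17, did not pass (adjusted p = 0.0849). At 24 h NDUFV1 fell by 0.50 (adjusted p = 3.45e-05), and NDUFS1 was at -0.08 with no call. The value of NDUFS1 depends on how transcripts are scaled: with the factors per gene that the deposited normalized values imply, it stood at 0.15 at 12 h (adjusted p = 0.111). Of the 7 core genes 4, 4, 2 and 4 fell at the 4 times (57.1%, 57.1%, 28.6% and 57.1%). Of the 31 accessory genes tested 16, 26, 20 and 25 fell (51.6%, 83.9%, 64.5% and 80.6%). The shares over all genes were 36.5%, 29.6%, 21.8% and 31.0%.

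In complex III, 4, 6, 4 and 9 of the 9 genes fell (44.4%, 66.7%, 44.4% and 100%), against 36.5%, 29.6%, 21.8% and 31.0% of all genes. UQCRB, which binds the quinone site, was the largest: 63.0, 36.9, 85.2 and 57.9 CPM in the controls and 29.8, 30.9, 33.6 and 31.8 CPM at 12 h (log2 fold change -0.95, SE 0.18, adjusted p = 1.11e-04), with -0.84 at 72 h. UQCRFS1, the Rieske iron-sulfur protein, was at -0.10, -0.17, -0.35 and -0.41, called from 24 h on, and UQCRC1 was called at 24 h (-0.26, adjusted p = 0.0436; 0.0849 to 0.169 without control replicate 1 or 2 or EGF 24 h replicate 2, 3 or 4) and 72 h (-0.35, adjusted p = 0.00695). UQCRH, which is found beside its copy UQCRHL, was called at 72 h only (-0.18, adjusted p = 0.0341), and the 2 rows may share reads.

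In complex IV, 3, 7, 2 and 7 of the 12 genes tested fell; the shares at 12 and 48 h (25.0% and 16.7%) were below those of all genes (36.5% and 21.8%), and those at 24 and 72 h (58.3% each) above (29.6% and 31.0%). COX7B, a small structural subunit, fell at all 4 times: 416, 294, 442 and 392 CPM in the controls and 257, 233, 271 and 249 CPM at 12 h, and its log2 fold changes of -0.61, -0.70, -0.58 and -0.73 (SE 0.093) all came with all 4 libraries below the controls. The regulatory subunit COX4I1 was at -0.22 at 72 h (adjusted p = 0.00831; 0.0527 without control replicate 1). COX6A1 lay between -0.06 and 0.09 and COX8A between -0.29 and 0.16, with no call. COX7A2L was called higher at 24 h (0.22, adjusted p = 0.0176), a call lost without control replicate 2 or 4 or EGF 24 h replicate 4. The call of COX6B2, the testis paralog of COX6B1, at 12 h (1.03, adjusted p = 0.0469) was lost without control replicate 2 or 4 or EGF 12 h replicate 1, 3 or 4 (adjusted p = 0.0656 to 0.149). It rose at 48 and 72 h (1.68 and 1.78; adjusted p = 0.00215 and 7.96e-04), from 0.0841 to 0.256 CPM in the controls to 0.455 to 1.00 CPM at 72 h, with 183 counts in all and 30.9% of its exon bases shared with another gene on the same strand. COX6B1 itself was at 160 CPM in the controls and fell at 24 and 72 h (-0.34 and -0.36).

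The catalytic head of complex V moved in time. ATP5F1B, the catalytic beta subunit, measured 311, 296, 265 and 276 CPM in the controls, 339, 324, 325 and 312 CPM at 12 h, and 236, 219, 233 and 231 CPM at 72 h. All libraries at 12 h lay above the controls and all at 72 h below them (log2 fold change 0.18, adjusted p = 0.0105, and -0.32, adjusted p = 5.74e-05). The rise at 12 h is small and turned into -0.11 with library size scaling and -0.02 with the factors per gene, with no call in either. ATP5F1A, the alpha subunit, was at -0.09 at 12 h and fell at 24, 48 and 72 h (-0.29, -0.23 and -0.58); the call at 48 h was lost without control replicate 1 (-0.11, adjusted p = 0.0680). ATP5F1D, the delta subunit of the central stalk, was at 0.42 at 12 h (adjusted p = 0.0202; 0.0561, 0.0846 and 0.0810 without control replicate 1, control replicate 3 or EGF 12 h replicate 1).

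The membrane ring of complex V is built from c subunits that 3 genes encode, with different import sequences and the same mature protein. ATP5MC2 measured 124, 145, 99.6 and 121 CPM in the controls, 75.9 to 90.0 CPM at 12 h, 49.8 to 61.1 CPM at 24 h, 71.3 to 105 CPM at 48 h and 54.2 to 66 CPM at 72 h. Its log2 fold changes were -0.57, -1.13, -0.48 and -0.97 (SE 0.11), and 3 of the 4 libraries at 48 h and all others lay below every control. ATP5MC3 measured 176, 205, 167 and 176 CPM in the controls and went from 0.08 at 12 h (no call) to -0.26, -0.32 and -0.61 at 24, 48 and 72 h. ATP5MC1 measured 27.6 to 43.2 CPM in the controls and 26.1 to 31.7 CPM at 72 h, with no call at any time (-0.25 at 72 h, adjusted p = 0.0502). ATP5PO and ATP5PB, subunits of the peripheral stalk, fell at all 4 times, by 0.84 and 0.78 on the log2 scale at 72 h. ATP5IF1, the inhibitor that blocks ATP hydrolysis, fell at 12 and 24 h (-0.56 and -0.44) and was at -0.12 and -0.07 afterwards.

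**Figure D4:**
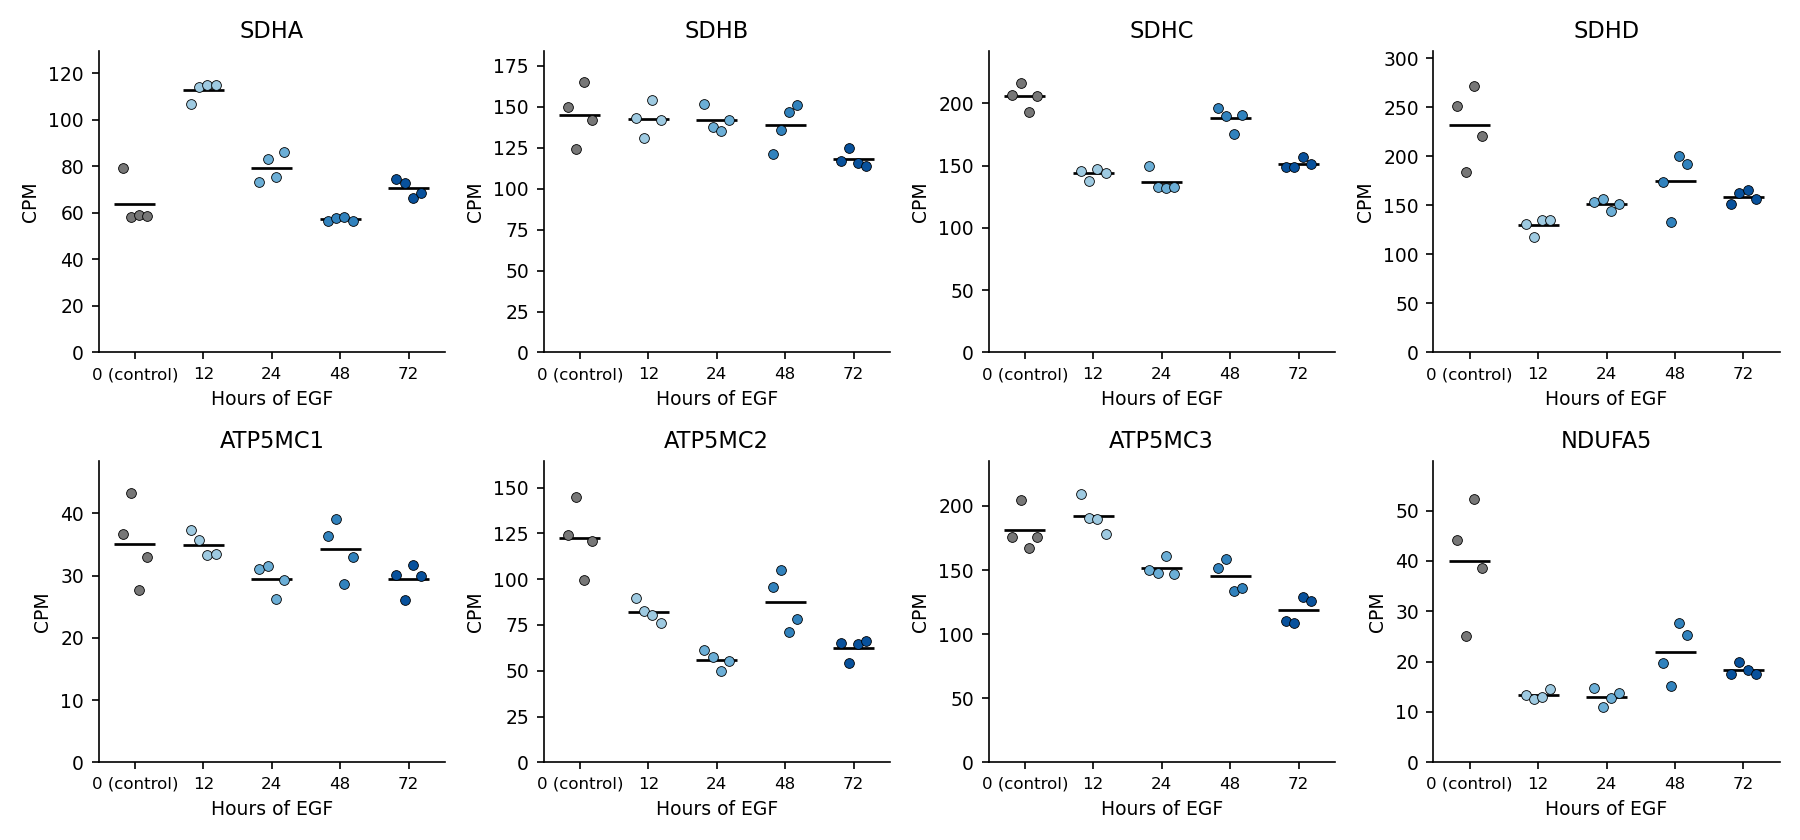
CPM of the 4 complex II genes, the 3 genes of the c subunit of complex V and NDUFA5 in each library, by hours of EGF (points, libraries; line, group mean; axes start at 0). SDHA at 107 to 115 CPM at 12 h lies above the controls while SDHD at 118 to 135 CPM lies below them, and ATP5MC2 lies below the controls except for 1 library at 48 h.

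From 24 to 48 h more nuclear genes rose than fell, the opposite of the steps before and after. From 12 to 24 h 0 mitochondrial genes were called (0 by DESeq2 and 0 at an unadjusted p under 0.05), and 6 nuclear genes rose and 29 fell (27.9% and 25.9% of all genes). From 24 to 48 h the same 3 counts were 0, and 30 nuclear genes rose and 4 fell (25.9% and 24.3%); 21 of the 30 were complex I genes. From 48 to 72 h 1 mitochondrial gene (MT-ND2) and 1 nuclear gene rose and 27 nuclear genes fell (17.9% and 17.9%). Leaving out EGF 48 h replicate 2, the library with the highest mitochondrial share, raised the mitochondrial count from 1 to 9. At 72 h against 12 h, 6 mitochondrial genes rose (MT-ND1, MT-ND2, MT-ND4, MT-ND4L, MT-ND5 and MT-CYB), and 11 nuclear genes rose and 34 fell (35.6% and 32.0%). Library size scaling turned the nuclear median of this comparison from -0.14 to 0.07, and that of 24 h against 12 h from -0.12 to 0.02.

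The sets of genes around the respiratory chain, listed by function with earlier results of these data known, are given here by their counts. For comparison, 32.9%, 29.2%, 24.0% and 30.6% of all genes were called higher at 12, 24, 48 and 72 h and 36.5%, 29.6%, 21.8% and 31.0% lower. Of 13 genes of coenzyme Q synthesis, 2, 1, 1 and 1 rose and 11, 9, 5 and 8 fell at the 4 times, the falls being 84.6%, 69.2%, 38.5% and 61.5% of the list (median log2 fold change -0.67 at 12 h). COQ5, a methyltransferase of the pathway, fell by 1.62 at 12 h (SE 0.16, adjusted p = 5.67e-09), and COQ10B, a coenzyme Q binding protein, rose by 1.33 at 72 h (SE 0.14, adjusted p = 2.06e-08). Of 14 assembly factors of complexes II, III and V, 10, 10, 5 and 10 fell (71.4%, 71.4%, 35.7% and 71.4%), led by LYRM7, which acts in complex III assembly (-1.86 at 12 h, SE 0.16, adjusted p = 3.71e-10), while SDHAF2, which attaches the flavin to SDHA, rose by 0.40 at 12 h (adjusted p = 1.84e-06).

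Of 17 complex I assembly factors, 3, 1, 1 and 1 rose and 8, 9, 7 and 8 fell (47.1%, 52.9%, 41.2% and 47.1%). NDUFAF4 went from 0.57 at 12 h (adjusted p = 8.99e-06) to -0.72 at 72 h (adjusted p = 5.11e-07), and LYRM2 fell by 1.11 at 12 h. Of 25 complex IV assembly factors, 7, 4, 1 and 3 rose and 13, 12, 8 and 14 fell (52.0%, 48.0%, 32.0% and 56.0%); the 28% that rose at 12 h was below the share of all genes. The largest rise at 12 h was that of SCO2, a copper chaperone (0.99), and the largest fall that of COA5 (-1.69). The 3 members of the chain outside the naming rule, CYC1, CYCS and NDUFAB1, were all called higher at 12 h and at no other time; for NDUFAB1 the value was 0.20, and -0.08 with library size scaling.

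Of 22 genes of mitochondrial RNA processing and stability, 11 rose (50.0%, against 32.9% of all genes) and 4 fell at 12 h, and 4 rose and 13 fell (59.1%, against 31.0%) at 72 h. TBRG4 (FASTKD4), which stabilises mitochondrial messengers, was at 0.89 at 12 h (adjusted p = 4.16e-10) and 0.12 at 72 h, and PTCD2 fell by 1.45 at 12 h. Of 14 genes of mitochondrial DNA transcription and replication, 5 rose (35.7%) and 4 fell (28.6%) at 12 h and 2 rose (14.3%) and 5 fell (35.7%) at 72 h; the share that rose at 12 h and the share that fell at 72 h were near those of all genes (32.9% and 31.0%). TWNK, the mitochondrial DNA helicase, measured 2.61 to 2.93 CPM in the controls and 5.08 to 6.32 CPM at 12 h (1.03, SE 0.15, adjusted p = 2.31e-06). MTERF2 measured 6.60 to 8.29 CPM in the controls and 1.93 to 3.26 CPM at 72 h (-1.62, SE 0.16, adjusted p = 5.58e-09). TFAM, which packages mitochondrial DNA and starts its transcription and was picked after its values were seen, went down at each time, to -0.32, -0.60, -0.72 and -1.11 (adjusted p = 0.00306 at 12 h and 2.83e-10 at 72 h), with all 4 EGF libraries below all controls at every time.

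Of 10 tested regulators of nuclear respiratory genes, 9 rose and none fell at 12 h (32.9% of all genes rose), and 3 rose and 4 fell at 72 h (30.6% and 31.0% of all genes). MYC measured 113 to 132 CPM in the controls, 438 to 472 CPM at 12 h and 165 to 190 CPM at 72 h (log2 fold change 1.89 and 0.54). NRF1, also picked after its values were seen, was at 0.81 at 12 h (adjusted p = 1.01e-06) and -0.53 at 72 h (adjusted p = 5.01e-04), and GABPA fell by 0.61 at 72 h (adjusted p = 2.03e-05). In a list of 8 stress and apoptosis genes (7 tested), 4 were called higher at each time (57.1%, against 32.9%, 29.2%, 24.0% and 30.6% of all genes). GDF15 went from 0.128 to 0.378 CPM in the controls to 9.39 to 13.8 CPM at 72 h (5.69, SE 0.23, adjusted p = 3.94e-16), and DDIT3, picked after its values were seen, rose by 2.3 at 72 h. The list was set beside the mitochondrial share, and its part in that share was not tested.

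**Figure D5:**
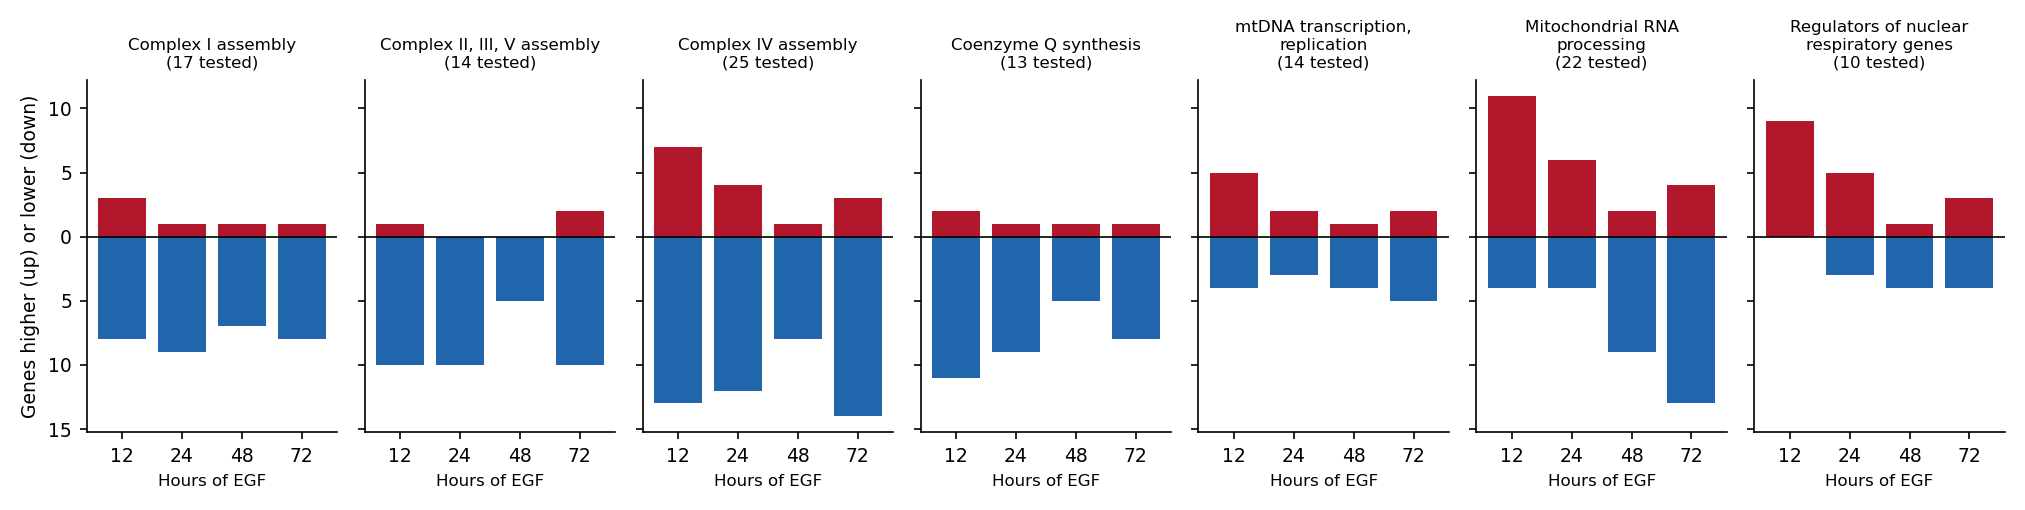
Number of genes called higher (red, upward) and lower (blue, downward) against control at each EGF time in 7 lists of genes around the respiratory chain, with the number tested above each panel. Coenzyme Q synthesis and the assembly lists have more genes lower than higher at each time, whereas the 10 regulators tested show 9 higher and 0 lower at 12 h.

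Across the 82 nuclear genes, the log2 fold change at 12 h had a Spearman rho of 0.45 with the GC content of the longest annotated coding transcript, against 0.17 over 13208 protein-coding genes, and at 24, 48 and 72 h it was 0.17, 0.38 and 0.27, against 0.00, 0.19 and 0.09. With transcript length the 4 values lay between -0.17 and 0.01. These are descriptions across genes measured in the same libraries, and genes are not independent replicates.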

How the data were processed

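RNA of 20 MDA-MB-468 cultures was made into libraries with the Lexogen Corall mRNA protocol and sequenced as 75-base single-end reads. The authors deposited expected counts per gene, rounded to whole numbers, which were used here, and normalized values (unit score) whose factors differ between genes of a library, which served only as an alternative scaling. Per the labels' processing notes, DESeq2 and hg38 were used. Other columns of the 10 deposited tables hold the authors' comparisons and were not used; 0 other columns of per-sample values were present. The 13 mitochondrial genes carry a mitochondrial protein-coding biotype in the annotation and were accepted with the protein-coding ones.

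Counts were scaled by TMM, filtered with filterByExpr (16522 of 60271 genes kept) and tested with edgeR 4.0.16 (robust quasi-likelihood, R 4.3.3, limma 3.58.1) in a single model of all 20 libraries, with p-values adjusted by Benjamini and Hochberg across the genes kept and a threshold of 0.05. The SE is the absolute log2 fold change divided by the square root of F. DESeq2 1.42.0 was an alternative. The edgeR steps were tested on simulated data. Each test set the difference between group means against the spread between biological replicates, estimated from all 20 libraries together. Intervals between libraries cover this spread, and total counts of 15611961 to 25856953 limit the precision of low genes.

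The members and lists were chosen with earlier results of these data known. Named genes were the 13 mitochondrial genes, core subunits, paralog pairs, per time the 3 largest nuclear rises and falls with an adjusted p under 0.05, at least 1 CPM and no overlap with the controls, and the largest rise and fall of each list. TFAM, NRF1, DDIT3, SDHC, SDHD, ATP5F1D, NDUFA7 and the ratios of mitochondrial genes were picked after their values were seen. Some genes covered by these rules are not reported by name here.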

Additional observations from a re-analysis of the deposited data

Results flagged for a closer look

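Of 345 groups of 4 libraries among the named genes, 13 held 1 library whose gap to its nearest neighbour was larger, relative to the range of the group, than Dixon's critical value; chance flags about 1 in 20 groups. In the complexes these were SDHA in control replicate 1 (79.4 CPM) and EGF 12 h replicate 1 (107 CPM), SDHC in EGF 24 h replicate 1 (150 CPM), UQCRFS1 in EGF 72 h replicate 3 (221 CPM), UQCRB in EGF 72 h replicate 2 (40.6 CPM) and COX8A and ATP5MC2 in the same library (94.5 and 54.2 CPM). NDUFB1 stood apart in EGF 12 h replicate 3 (26.3 CPM) and EGF 72 h replicate 1 (22.3 CPM). Outside the complexes they were TBRG4 and NRF1 in EGF 24 h replicate 1 (40.2 and 5.19 CPM), GABPA in EGF 12 h replicate 1 (57.1 CPM) and DDIT3 in EGF 48 h replicate 3 (12.6 CPM).

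Some genes were called in opposite directions at different times, and the direct comparison of the times was called too (edgeR). On the log2 scale, ATP5F1B differed by -0.50 between 72 and 12 h. NDUFAF4 differed by -0.81 between 24 and 12 h and by -1.29 between 72 and 12 h. TWNK differed by -1.46 and HMOX1 by 1.08 between 72 and 12 h. NRF1 differed by -1.11 between 24 and 12 h and by -1.34 between 72 and 12 h. The calls against the control behind some of these were lost without 1 library: NDUFAF4 at 24 h without control replicate 1 or 3 or EGF 24 h replicate 1, 2 or 3 (adjusted p = 0.0572 to 0.154), TWNK at 72 h without control replicate 2 or 4 or EGF 72 h replicate 1 or 4 (0.0553 to 0.0957), and NRF1 at 24 h without control replicate 1 or 2 (0.0739 and 0.0656) or EGF 24 h replicate 1, the library that stood apart (-0.16, adjusted p = 0.167).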

How the results depend on the processing

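Values below are counts of genes called or median log2 fold changes, and where a value moved the cause was not tested. With library size scaling, 74 nuclear genes were called at 12 h, and the nuclear median was -0.49 at 12 h, -0.49 at 24 h, -0.43 at 72 h, 0.02 for 24 against 12 h (20 called), 0.28 for 48 against 24 h (58 called), -0.24 for 72 against 48 h (47 called) and 0.07 for 72 against 12 h; 0, 2 and 10 mitochondrial genes were called at 24 h, 48 h and 72 against 12 h. It also gave COX6A1 -0.20, ATP5MC3 -0.20, NDUFAB1 -0.08 and ATP5F1B -0.11 at 12 h. With upper quartile scaling the nuclear median was -0.37 at 12 h, 0.00 for 24 against 12 h (19 called), 0.19 for 48 against 24 h and 0.00 for 72 against 12 h, with 0 mitochondrial calls at 24 h and 0 for 72 against 48 h. With no filter the mitochondrial calls were 0 at 24 h, 0 at 48 h, 0 for 72 against 48 h and 3 for 72 against 12 h. With offsets per gene the nuclear median was -0.42, -0.31 and -0.44 at 24, 48 and 72 h, with 3 mitochondrial calls at 48 h and 2 for 72 against 48 h; NDUFS1 was at 0.15, 0.24, 0.16 and 0.09 at the 4 times, NDUFB5 at 0.54 at 48 h and ATP5F1B at -0.02 at 12 h. DESeq2 called 3 mitochondrial genes at 48 h. With at least 10 counts in every library 4 were called at 48 h and 10 for 72 against 12 h, and the nuclear median was -0.30 at 72 h and -0.06 for 72 against 12 h. With only the 8 libraries compared, 0 were called at 48 h and 0 for 72 against 48 h, and 27 nuclear genes at 48 h. With counts off the mitochondrial chromosome as the denominator the mean mitochondrial share was 8.23% at 24 h and 11.2% at 72 h, and as a percentage of nuclear member counts it was 414, 552, 688, 618 and 894 from control to 72 h.

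Leaving out 1 library at a time, mitochondrial calls ranged over 0 to 3 at 24 h, 0 to 4 at 48 h, 7 to 10 at 72 h, 0 to 9 for 72 against 48 h and 3 to 9 for 72 against 12 h, and mitochondrial medians over 0.09 to 0.35, 0.20 to 0.45, 0.15 to 0.50 and 0.64 to 0.88 at the 4 times. Nuclear calls ranged over 37 to 48, 53 to 62, 32 to 49 and 55 to 65, and nuclear medians over -0.23 to -0.16, -0.41 to -0.30, -0.23 to -0.15 and -0.39 to -0.32. Of 149 named calls, 25 were lost without some library.

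Replicate numbers did not pair the libraries: same-numbered libraries' deviations correlated at -0.239 to 0.348 (mean 0.0198, 5 of 40 pairs over 0.1). With a replicate block, 44 nuclear genes were called at 12 h and 0 mitochondrial genes at 48 h.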
